A study of Mus musculus with 8 samples.

Results

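Epithelial cells release chemokines, small secreted proteins that draw leukocytes to a tissue. The transcripts of 10 chemokine genes were followed here in the murine intestinal epithelial line IEC10: Cxcl9, Cxcl10, Cxcl11, Cxcl16, Cxcl1, Ccl2, Ccl5, Ccl8, Ccl20 and Cx3cl1. Every array probe whose gene name was 1 of these was taken, which gave 12 of the 39429 non-control probes and 10 of the 31791 gene names on the array. Cxcl9 and Cxcl11 had 2 probes each and the other genes a single probe. Each gene was counted by its probe with the highest mean log2 level.

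Chemokines are named after the spacing of their first cysteines, and each binds 1 or more G protein-coupled receptors on the leukocytes it attracts. CXCL9, CXCL10 and CXCL11 are ligands of CXCR3, found on activated T cells and natural killer cells, and their genes are textbook targets of interferons. CXCL16 and CX3CL1 are made as transmembrane proteins that can tether cells or be shed by proteases of the ADAM family. CXCL1 attracts neutrophils, CCL2 and CCL8 attract monocytes, CCL5 attracts T cells and monocytes, and CCL20 attracts CCR6-bearing cells to the gut mucosa. Type I IFN such as IFN-β and type III IFN such as IFN-λ2 use different receptors and then the same signaling cascade, whose transcription factor complex binds the IFN-stimulated response element (ISRE) in target promoters.

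IEC10 cells are immortalized cells from a transgenic mouse that carries firefly luciferase under the Mx2 promoter, and all groups share this background. They were grown on transwell inserts for 21 days until polarized and were then left untreated (control), stimulated with 20 ng/mL IFN-λ2 or stimulated with 500 U/mL IFN-β, in both cases for 9 h. There were 2 control arrays (replicates 2 and 3), 3 IFN-λ2 arrays and 3 IFN-β arrays (replicates 1 to 3). Each array holds RNA of a whole culture of this 1 line, so that fewer expressing cells and less RNA per cell cannot be told apart. Nothing in the labels says whether the replicates were separate experiments, and p-values measure the spread between these arrays. Arrays of the same replicate number shared a slide.

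The 8 arrays were similar in quality. Between 20991 and 24252 probes per array were marked by the scanner software as well above background, with the smallest number for IFN-λ2 replicate 2. On that array the median of the negative control features was 8.07 units, against 3.31 to 6.49 units on the others. A unit is the background-subtracted intensity scaled so that the 75th percentile of every array is 1500, and values under 15 units were set to 15. No probe was saturated. Of 12 epithelial markers, 10 were well above background on all 8 arrays, among them the keratins Krt8 and Krt18 and the adhesion molecule Epcam, while Cdx2, a transcription factor of intestinal epithelium, was not above background on any. Cdx1 was well above background on 4 arrays, and Vil1, among the 10, read only 40.3 to 67.9 units. The 12 markers summed to 442034 to 450446 units in control, 519455 to 546579 units with IFN-λ2 and 448926 to 486844 units with IFN-β, with the largest parts from Krt18 and Krt20. Of the 11 epithelial markers tested, 3 rose with IFN-λ2 against control and 1 fell, beside 10% and 8.55% of all probes. Krt19, Krt20 and the cadherin Cdh1 rose and the claudin Cldn3 fell, of which Cdh1 was not called with the slide as a block (adjusted p = 0.0766). Krt19 and Krt20 were also higher with IFN-λ2 in the comparison of the IFNs, beside 5.53% of all probes, and whether this bears on the chemokines was not tested. Of the T cell markers, Cd3d and Cd8a were likewise not above background on any array, whereas Cd3e was so on all 8, at 137 to 189 units. Ptprc, which encodes the leukocyte antigen CD45, was well above background on 2 arrays, IFN-β replicates 1 and 3, at 43.5 and 36.6 units. The summed level of 11 leukocyte markers was 15434 to 18826 units in the control group, 12566 to 14762 units with IFN-λ2 and 12563 to 20130.3 units with IFN-β. Most of it came from the counted probes of Itgam, Csf1r and Cd14, which were well above background on all 8 arrays. None of the 7 leukocyte markers tested was called in any of the 3 comparisons, beside 18.6%, 1.65% and 11.2% of all probes called. At an unadjusted p under 0.05, 2 were higher and 1 lower with IFN-λ2 against control, 1 was lower with IFN-β against control, and 1 was higher and 2 lower between the IFNs. The share of all probes at that p was not taken, so that nothing is read from these counts. By its counted probe Itgam read 5874 to 8370.2 units in control, 2115 to 3706 units with IFN-λ2 and 2721 to 10737 units with IFN-β (IFN-λ2 against control, adjusted p = 0.143). Its other 2 probes averaged 24.3 and 23.4 units in control, 48.5 and 28.3 units with IFN-λ2, and 31.5 and 50.4 units with IFN-β. The other 2 Csf1r probes averaged 184 and 209 units in control, 185 and 167 units with IFN-λ2, and 171 and 208 units with IFN-β. Why the probes of these genes differ was not tested, nor was the part of Itgam in the chemokine results. The 7 fibroblast markers, of which Lum, Pdgfra and Pdgfrb were at 15 units throughout, summed to 122.9 to 173 units over all arrays.

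The sequences upstream of the start site are given for Cxcl10, Cxcl1 and Ccl8, the 3 genes with a difference between groups whose promoter is in the RefSeq table used here (GRCm38.p6). Each is the 250 bases before the start site, 5′ to 3′ on the gene's strand. Cxcl10 lies at chr5:92348890-92349139 on the minus strand, Cxcl1 at chr5:90890995-90891244 on the plus strand and Ccl8 at chr11:82114935-82115184 on the plus strand. Capitals mark matches on either strand to the ISRE letters (TTTC, then any 2 bases, then TTTC) or to the NF-κB consensus. NF-κB is a family of transcription factors activated by inflammatory signals.
Cxcl10: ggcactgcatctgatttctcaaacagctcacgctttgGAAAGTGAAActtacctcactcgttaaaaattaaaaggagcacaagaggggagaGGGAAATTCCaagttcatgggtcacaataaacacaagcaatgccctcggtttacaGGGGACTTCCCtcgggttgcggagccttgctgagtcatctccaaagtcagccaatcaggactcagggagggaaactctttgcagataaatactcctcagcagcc
Cxcl1: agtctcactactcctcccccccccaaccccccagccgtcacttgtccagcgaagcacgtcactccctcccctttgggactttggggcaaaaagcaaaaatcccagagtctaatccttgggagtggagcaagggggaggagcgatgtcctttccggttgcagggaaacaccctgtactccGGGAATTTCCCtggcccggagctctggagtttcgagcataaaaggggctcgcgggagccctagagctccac
Ccl8: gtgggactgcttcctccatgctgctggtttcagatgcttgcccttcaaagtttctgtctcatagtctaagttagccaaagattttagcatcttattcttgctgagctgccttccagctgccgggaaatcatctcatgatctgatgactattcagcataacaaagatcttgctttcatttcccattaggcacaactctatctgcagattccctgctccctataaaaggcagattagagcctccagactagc
In Cxcl10 the ISRE match lies on the minus strand of the gene, 213 to 204 bases before the start, and the NF-κB matches lie at 159 to 150 and, in 3 overlapping readings, at 104 to 94 bases before it. The ISRE letters occur in this window in 2.98% of 32851 RefSeq promoters, the NF-κB consensus in 7.25% and both together in 0.164%. Cxcl1 has overlapping NF-κB matches at 71 to 61 bases before the start and no ISRE letters, and Ccl8 has neither. Of the 6 genes of the set with a promoter in the table, which also include Cxcl9, Ccl20 and Cx3cl1, 1 held the ISRE letters and 3 the NF-κB consensus, Ccl20 being the third. None held the letters TTCNNNGAA bound by STAT dimers (the GAS element), which occur in 7.02% of all promoters. These matches are a description of the letters and no measurement of binding.

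The counted probe of 7 genes was well above background on all 8 arrays. Those of Cxcl9, Ccl8 and Ccl20 were so on 3, 3 and 2 arrays and lay near the lower threshold elsewhere. All 10 genes had a probe that passed the filter for testing (above 15 units on at least 2 arrays), but a gene near the threshold could pass through the group in which it is high. Differences were fitted with limma and called at an adjusted p under 0.05, adjusted over all 25972 probes tested. A call needed no minimum fold change.

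Cxcl10 and Cxcl16, that is 2 of the 10 genes, rose with IFN-λ2, where 10% of all probes tested rose against control. No gene of the set fell with IFN-λ2, where 8.55% of all probes fell, and none did at an unadjusted p under 0.05 or by the methods' t-test. Cxcl10 and Ccl8, again 2 of 10, rose with IFN-β, where 1.44% of all probes rose and 0.208% fell, and no gene of the set fell by limma at either p or by the methods' t-test. Cxcl9, Ccl8 and Ccl20 were at 15 units on both control arrays and could not fall against control, so that the absence of falls says nothing about them. Directly compared, IFN-λ2 was higher than IFN-β for Cxcl16 and lower for Ccl2, Ccl8 and Cxcl1, where 5.53% of all probes were higher and 5.68% lower. With a 2-fold change also required, only Cxcl10 of the 10 genes rose with IFN-λ2 (2.67% of all probes rose and 1.19% fell), Cxcl10 and Ccl8 rose with IFN-β (0.882% and 0.0308%), and between the IFNs only Ccl8 differed, being lower with IFN-λ2 (1.44% of all probes were higher and 0.774% lower). The median log2 difference of the 10 genes was 0.35 for IFN-λ2 against control, 0.38 for IFN-β against control and -0.06 for IFN-λ2 against IFN-β, beside medians of 0.00083, 0.016 and -0.015 over all probes tested. With the genes that were dim in a whole group set at their bound, the first of these medians was 0.23 and those of the other comparisons did not move. Both comparisons with control share the same 2 control arrays.

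**Figure D1:**
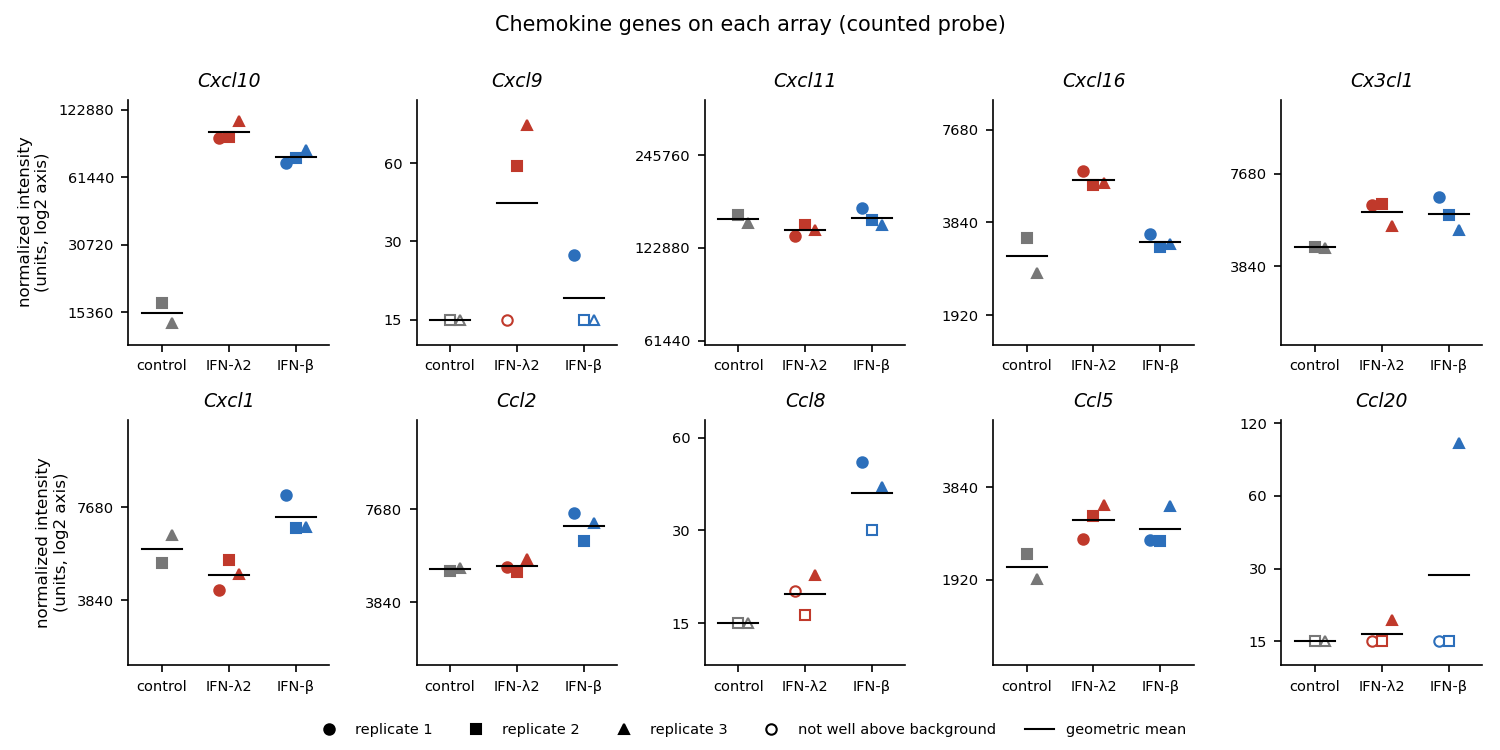
Level of each chemokine gene on each of the 8 arrays, in normalized intensity units on a log2 axis, by group. Symbols stand for the replicate numbers, open symbols for arrays on which the probe was not well above background, and the black line for the geometric mean of a group. Cxcl10 separates both IFN groups from control, Cxcl16 separates the IFN-λ2 group, and Ccl2 and Cxcl1 are highest in the IFN-β group.

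Among the CXCR3 ligands, Cxcl10 had, with either IFN, the largest difference from control among the 7 genes of the set that were well above background on all 8 arrays. It measured 16952 and 13747 units on the control arrays, 92266, 92692 and 109113 units with IFN-λ2, and 70752, 74784 and 80998 units with IFN-β. The groups did not overlap, and the lowest IFN-λ2 array lay above the highest IFN-β array. Cxcl10 was 6.40-fold higher with IFN-λ2 than in control (log2 difference 2.68, SE 0.13, adjusted p = 2.84e-05) and 4.94-fold higher with IFN-β (2.30, SE 0.13, adjusted p = 8.43e-05). The difference between the IFNs, 1.30-fold in favour of IFN-λ2 (0.37, 95% interval 0.11 to 0.64), was not called (adjusted p = 0.0833). It was called with quantile normalization (adjusted p = 0.0348) and with a variance prior that follows the level (0.0454). The deposited values, which differ from these by an array factor, averaged 14050.2 ± 2039 units in control (SD, n = 2), 90623 ± 8556 units with IFN-λ2 (SD, n = 3) and 69029.5 ± 4870.1 units with IFN-β (SD, n = 3).

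Cxcl9, the other classical IFN-induced ligand of CXCR3, was barely detected. Its counted probe was at 15 units on both control arrays, at 15, 58.6 and 84.5 units with IFN-λ2 and at 26.6, 15 and 15 units with IFN-β. It was well above background on 2 of 3 IFN-λ2 arrays, on 1 of 3 IFN-β arrays and on no control array, and the groups overlapped at the threshold. With control, where the probe was dim, set at the limit of detection, the mean with IFN-λ2 was 2.38-fold that of control. This is no lower bound, since IFN-λ2 replicate 1 was itself set to 15 units. No difference was called (adjusted p = 0.182). With normexp background correction Cxcl9 was higher with IFN-λ2 than in control (adjusted p = 0.00321) and relative to IFN-β (adjusted p = 0.0147). The fit without IFN-λ2 replicate 1 called both as well (adjusted p = 0.0121 and 0.0214), but it leaves out the IFN-λ2 array that was at the threshold and sets the others against controls fixed there, so that nothing is read from it. The second Cxcl9 probe was at 15 units on all 8 arrays.

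Cxcl11, the third CXCR3 ligand, did not change by the test on either of its probes. The counted probe read 157349 and 147824 units in control, 134266, 146173 and 140668 units with IFN-λ2, and 165269, 151694 and 146003 units with IFN-β, and the second probe read 3969 and 4428 units in control, 3612, 3621 and 3681 units with IFN-λ2, and 4083, 3751 and 3719 units with IFN-β. The probes lie next to each other on chromosome 5 of mm9, the counted probe at 92788567 to 92788626 and the second probe at 92788640 to 92788699. On both, the IFN-λ2 arrays lay below the control arrays and the IFN-β arrays overlapped them. The interval of the log2 difference on the counted probe ran from -0.32 to 0.08 for IFN-λ2 against control and from -0.18 to 0.21 for IFN-β against control. RefSeq lists Cxcl11 of the reference mouse as a transcribed pseudogene, and neither accession of the array design matched the RefSeq table, so that the array's own name is kept.

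The Cxcl11 probes carry stretches that recur elsewhere, and 30 bases of each are shown because such stretches also occur in other sequences on the array and in promoters. Lower case is used throughout, since no motif is marked, and bases are counted from the 5′ end of the 60-base probe.
Counted Cxcl11 probe, bases 14 to 43: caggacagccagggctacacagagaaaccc
Second Cxcl11 probe, bases 15 to 44: tcagcacttgaaaggcagaggcaggaggat
The counted probe shared a word of 16 bases, on either strand, with 55 of the 32851 RefSeq promoters and with 19 probes of other genes, and 0.735% of all probes on the array shared a word with at least as many promoters. The second probe shared a word with 10 promoters and with 2 probes of other genes. Of the 10 other probes of the set, that of Ccl2 shared a word with 1 promoter, that of Ccl20 with 2 probes of other genes, and the others with no promoter and no other probe. How much of the Cxcl11 intensity comes from other transcripts was not tested.

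The transmembrane chemokine Cxcl16, the ligand of CXCR6 on intestinal T cells, rose with IFN-λ2. It measured 3425 and 2621 units in control, 5647, 5058 and 5154 units with IFN-λ2, and 3526, 3198 and 3257 units with IFN-β. All 3 IFN-λ2 arrays lay above every other array, and the IFN-β arrays overlapped the control arrays. Cxcl16 was 1.76-fold higher with IFN-λ2 than in control (log2 difference 0.82, SE 0.12, adjusted p = 0.0057) and 1.59-fold higher relative to IFN-β (0.67, SE 0.11, adjusted p = 0.0116). For IFN-β against control the difference was 0.15 (95% interval -0.14 to 0.44, adjusted p = 0.696). Without IFN-λ2 replicate 1 the difference between the IFNs was 0.62 with an adjusted p of 0.0514. On the 3 slides IFN-λ2 minus IFN-β was 0.66 to 0.68.

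Cx3cl1, the other transmembrane chemokine and the ligand of CX3CR1 on macrophages and lymphocytes, was not called. It read 4437 and 4418 units in control, 6077, 6143.5 and 5184 units with IFN-λ2, and 6473, 5659 and 5025 units with IFN-β. Every stimulated array was above both control arrays, and the IFN groups overlapped. The log2 difference from control was 0.39 with IFN-λ2 (SE 0.13, adjusted p = 0.0793) and 0.36 with IFN-β (SE 0.13, adjusted p = 0.321), and the interval between the IFNs ran from -0.24 to 0.29. With the variance prior that follows the level, the first of these was called (adjusted p = 0.0462). The sheddases of these proteins, Adam10 and Adam17, were measured on all 8 arrays and were not called in any comparison.

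**Figure D2:**
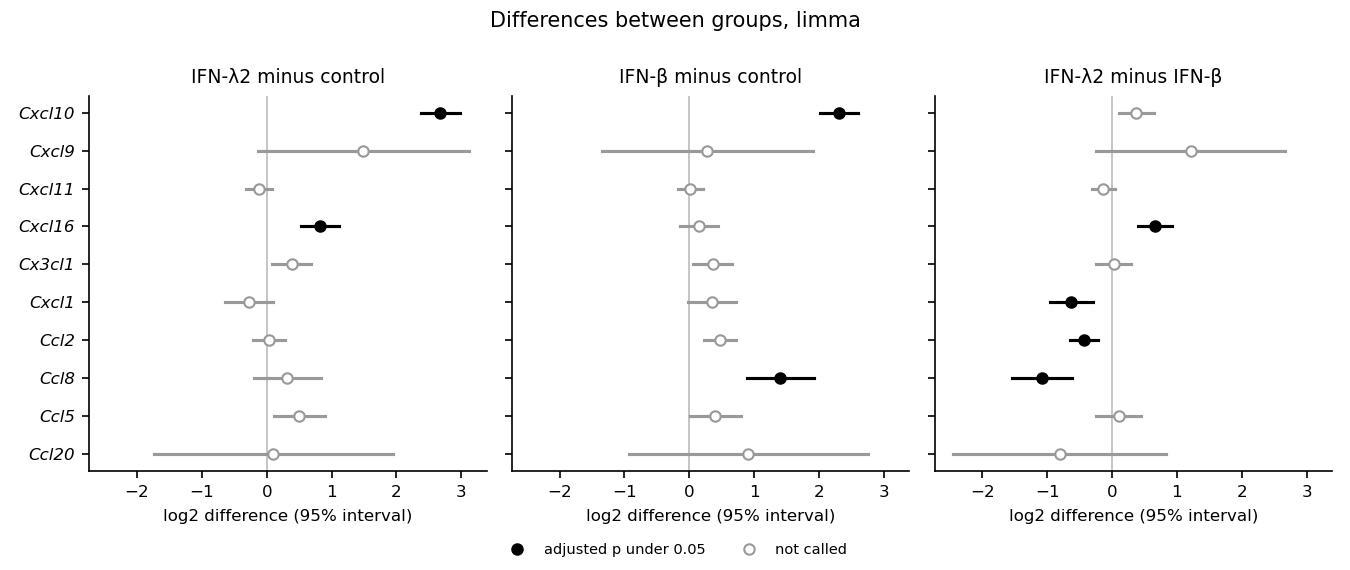
Log2 differences between the group means of the 10 chemokine genes with 95% intervals from limma, for each IFN against control and for IFN-λ2 against IFN-β. Filled points were called at an adjusted p under 0.05, open points were not. The widest intervals belong to Cxcl9 and Ccl20, whose probes were at the lower threshold on most arrays, and the differences from control of Cxcl9, Ccl8 and Ccl20 depend on that threshold.

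The neutrophil chemokine Cxcl1 and the monocyte chemokines Ccl2 and Ccl8 were lower after IFN-λ2 than after IFN-β, the opposite of Cxcl16. Ccl2 measured 4858 and 4952 units in control, 5008, 4813 and 5288 units with IFN-λ2, and 7492, 6050.0 and 6963 units with IFN-β. The control and IFN-λ2 arrays overlapped, and all 3 IFN-β arrays lay above them. Its probe is present in 10 copies on each array, of which 8 to 10 were used, and their log2 values had an SD between 0.0195 and 0.0596 within an array. Ccl2 was 1.35-fold lower after IFN-λ2 than after IFN-β (log2 difference -0.44, SE 0.09, adjusted p = 0.0264). The rise over control with IFN-β, 0.47 (SE 0.10), was not called (adjusted p = 0.102, and 0.0453 with the variance prior that follows the level), and with IFN-λ2 the difference was 0.04 (95% interval -0.21 to 0.28). The difference between the IFNs was not called in the fits that left out IFN-β replicate 1 or 3 or IFN-λ2 replicate 1, 2 or 3 (adjusted p between 0.0545 and 0.0949, log2 difference between -0.37 and -0.47). It was also lost with normexp background correction (adjusted p = 0.0526) and without a filter on dim probes (0.0509).

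Ccl8 was measured near the limit of detection, and it was highest with IFN-β. It was at 15 units on both control arrays, at 19.1, 15.96 and 21.4 units with IFN-λ2, and at 50.2, 30.1 and 41.4 units with IFN-β. The groups did not overlap, but the probe was well above background on no control array, on 1 IFN-λ2 array and on 2 IFN-β arrays. Ccl8 was at least 2.25-fold higher with IFN-β than in control (adjusted p = 0.0281) and lower after IFN-λ2 than after IFN-β (log2 difference -1.08, SE 0.20, adjusted p = 0.0153). With the slide as a block the first of these had an adjusted p of 0.067, and it was also lost in the fits without IFN-β replicate 1 or 3, IFN-λ2 replicate 1 or 3, or either control array (adjusted p between 0.0539 and 0.157). The second was lost without IFN-β replicate 3 or IFN-λ2 replicate 1 or 2 (0.0507 to 0.059). With normexp background correction the differences were 0.39 (adjusted p = 0.924) and 0.02 (adjusted p = 0.958), and with a threshold of 50 units they were 0.0018 and -0.0018. The arrays on which Ccl8 was well above background with IFN-β, replicates 1 and 3, are those on which Ptprc was. IFN-β replicate 2 had the highest median of the negative control features in its group, 6.49 units against 5.20 and 3.31 units. Whether either of these bears on Ccl8 was not tested.

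Cxcl1 measured 5079 and 6231 units in control, 4151, 5179 and 4672 units with IFN-λ2, and 8432, 6591 and 6641 units with IFN-β. The control arrays overlapped the IFN-λ2 arrays, and all 3 IFN-β arrays were above both groups. Cxcl1 was 1.54-fold lower after IFN-λ2 than after IFN-β (log2 difference -0.63, SE 0.14, adjusted p = 0.0332). Neither IFN differed from control by the test, with -0.28 (SE 0.16, adjusted p = 0.269) for IFN-λ2 and 0.35 (SE 0.16, adjusted p = 0.447) for IFN-β. With the slide as a block the adjusted p between the IFNs was 0.0922, and leaving out any single IFN array gave 0.0503 to 0.117 with log2 differences between -0.51 and -0.70. The call was also lost with normexp background correction (adjusted p = 0.0571), with a threshold of 50 units (0.0562) and without a filter on dim probes (0.0847).

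Ccl2 and Ccl8 lie in a cluster of monocyte chemokine genes on chromosome 11, together with Ccl7. In mm9 the Ccl2 probe lies at 81850650 to 81850709, the Ccl7 probe at 81860656 to 81860715 and the Ccl8 probe at 81930108 to 81930167. Ccl7 read 22.7 to 23.2 units in control, 20.2 to 28.1 units with IFN-λ2 and 40.1 to 79.6 units with IFN-β, and it was lower after IFN-λ2 than after IFN-β (log2 difference -1.36, SE 0.25, adjusted p = 0.0172). On each of the 3 slides the IFN-β array was thus the higher for Ccl2, Ccl7 and Ccl8. The probes of Ccl11 and Ccl12, which lie between those of Ccl7 and Ccl8, were at 15 units on every array. For Ccl7 the call was lost without IFN-β replicate 3 or IFN-λ2 replicate 1 or 2 (adjusted p between 0.06 and 0.0707), and the difference was -0.34 with a threshold of 50 units and -0.16 with normexp background correction.

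**Figure D3:**
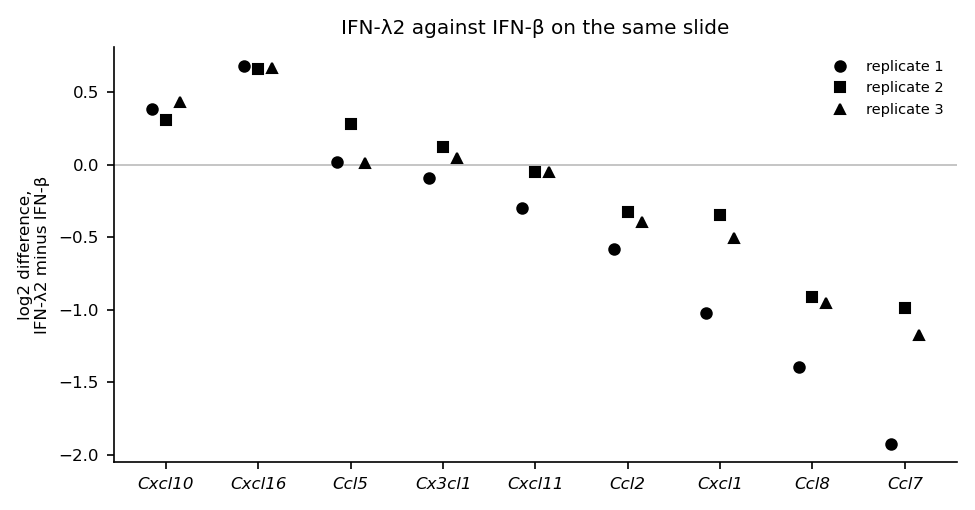
Log2 level with IFN-λ2 minus that with IFN-β for arrays on the same slide, for 8 genes of the set and for Ccl7, with a symbol per replicate number. Cxcl10 and Cxcl16 are above 0 on all 3 slides, and Ccl2, Cxcl1, Ccl8 and Ccl7 are below 0 on all 3, furthest on the slide of replicate 1. Ccl8 was not well above background on either array of the slide of replicate 2.

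Within slides the differences between the IFNs had the same sign on all 3 slides for Cxcl10, Cxcl16, Ccl2, Cxcl1 and Ccl8, and also for Ccl5 (0.009 to 0.28) and Cxcl11 (-0.30 to -0.05), which were not called. Those of Cx3cl1 and Cxcl9 lay on either side of 0. IFN-λ2 minus IFN-β was 0.31 to 0.43 for Cxcl10, -0.58 to -0.33 for Ccl2, -1.02 to -0.35 for Cxcl1 and -1.39 to -0.91 for Ccl8 on the 3 slides. For Ccl8 neither array of the replicate 2 slide was well above background (15.96 and 30.1 units), so that the sign there rests on values near the lower threshold. Against control, which was on 2 of the slides, IFN-λ2 was higher by 2.45 to 2.99 for Cxcl10 and 0.56 to 0.98 for Cxcl16, and IFN-β was higher by 2.14 to 2.56 for Cxcl10. Cxcl16 with IFN-β lay on either side of its control, at -0.10 and 0.31. Arrays of a group had the same position on every slide, so that position and treatment cannot be told apart.

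The T cell chemokine Ccl5 and the mucosal chemokine Ccl20 were not called in any comparison. Ccl5 read 2332 and 1930.2 units in control, 2613, 3109 and 3352 units with IFN-λ2, and 2582, 2562 and 3332 units with IFN-β. All stimulated arrays were above both control arrays, and the log2 difference was 0.50 with IFN-λ2 (SE 0.17, adjusted p = 0.0793) and 0.40 with IFN-β (SE 0.17, adjusted p = 0.404). For IFN-λ2 against IFN-β it was 0.10, with an interval from -0.25 to 0.45. The variance prior that follows the level called the first of these (adjusted p = 0.0484). Ccl20 was at 15 units on all arrays but 2, with 18.5 units on IFN-λ2 replicate 3 and 99.2 units on IFN-β replicate 3. Its intervals spanned over 3 log2 units in every comparison, so that a change in Ccl20 was not detectable here.

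The rest of the chemokine system was read from fixed lists. Of 27 other chemokine genes 16 were tested, and 5 rose and 2 fell with IFN-λ2 against control, which is 7 of 16 beside 18.6% of all probes changed in either direction. With IFN-β none of the 16 was called by limma, beside 1.65% of all probes. None was called by the methods' t-test either, which called 156 of all probes higher and 3 lower. Of the 16, 4 were higher at an unadjusted p under 0.05. How many of all probes reached that p was not taken, so that nothing is read from this count. Between the IFNs 5 were higher and 3 lower with IFN-λ2, beside 11.2% of all probes. With the slide as a block Cxcl3 was called as well, at 15 to 29.1 units with IFN-λ2 and 33.9 to 46.8 units with IFN-β (log2 difference -0.87, adjusted p = 0.0244, and 0.11 without the block). The median log2 difference of the 16 genes was 0.08, 0.14 and 0.03 in the 3 comparisons.

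The genes that rose with IFN-λ2 also exceeded their level under IFN-β. Ccl6, a CCR1 ligand, read 57.1 to 65.3 units in control, 221 to 233 units with IFN-λ2 and 66.6 to 79.9 units with IFN-β (log2 difference from control 1.90, adjusted p = 5.31e-05, and from IFN-β 1.65, adjusted p = 0.000252). Its neighbour Ccl9 was not well above background on any control or IFN-β array and read 40.0 to 47.7 units with IFN-λ2, which is at least 2.32-fold higher than in control (adjusted p = 0.000254) and at least 2.02-fold higher than under IFN-β (adjusted p = 0.000326). With a threshold of 50 units every array was at the threshold for Ccl9 and no difference was left. Ccl28, a mucosal chemokine that attracts IgA plasma cells, rose from 105.9 and 106.9 units in control to 371 to 454 units with IFN-λ2 (1.95, adjusted p = 0.00436). With IFN-β it read 138 to 280.1 units, and the difference between the IFNs was 1.16 (adjusted p = 0.0285), lost in the fit without any 1 of the 8 arrays except IFN-β replicate 1 (adjusted p between 0.0529 and 0.106), with a threshold of 50 units (0.0578), with the groups compared alone (0.0529) and without a filter on dim probes (0.087). Cxcl17, a mucosal chemokine, read 90.6 to 165 units with IFN-λ2 beside 24.6 to 25.1 units in control and 15 to 23.4 units with IFN-β (2.35, adjusted p = 0.00189, and 2.76, adjusted p = 0.00118). Cxcl17 was well above background on 1 of 3 IFN-β arrays, and its difference was as low as 1.30 from control with normexp background correction and 1.34 from IFN-β with a threshold of 50 units, called in both. Pf4, platelet factor 4, read 81.3 to 171 units with IFN-λ2 beside 35.6 to 41.3 units in control and 40.3 to 43.8 units with IFN-β (1.49, adjusted p = 0.016, and 1.37, adjusted p = 0.0201). The call of Pf4 against control was lost without control replicate 2 (adjusted p = 0.0839) or 3 (0.0656), and that against IFN-β without IFN-β replicate 1 (0.0587) or 3 (0.0714). Both were lost with a threshold of 50 units (0.0739 and 0.0748) and without a filter on dim probes (0.0528 and 0.0672), and the first also with the groups compared alone (0.0583). The lowest differences of Pf4 under any alternative were 0.90 from control and 0.92 from IFN-β.

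The genes that fell with IFN-λ2 were Cxcl14 and Cxcl5. Cxcl14, an epithelial chemokine, read 1956 to 2326 units in control, 684 to 782 units with IFN-λ2 and 1836 to 2673 units with IFN-β (log2 difference -1.57 from control, adjusted p = 0.00136, and -1.66 from IFN-β, adjusted p = 0.00129). Cxcl5, which like Cxcl1 attracts neutrophils, read 664 to 758 units in control, 519 to 582 units with IFN-λ2 and 909 to 1031 units with IFN-β. Its log2 difference from IFN-β was -0.85 (adjusted p = 0.00216). The difference from control was -0.37 (adjusted p = 0.0434), which was lost with the slide as a block (adjusted p = 0.063) and in the fit without any 1 array except IFN-β replicate 1 (adjusted p between 0.0555 and 0.202).

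**Figure D4:**
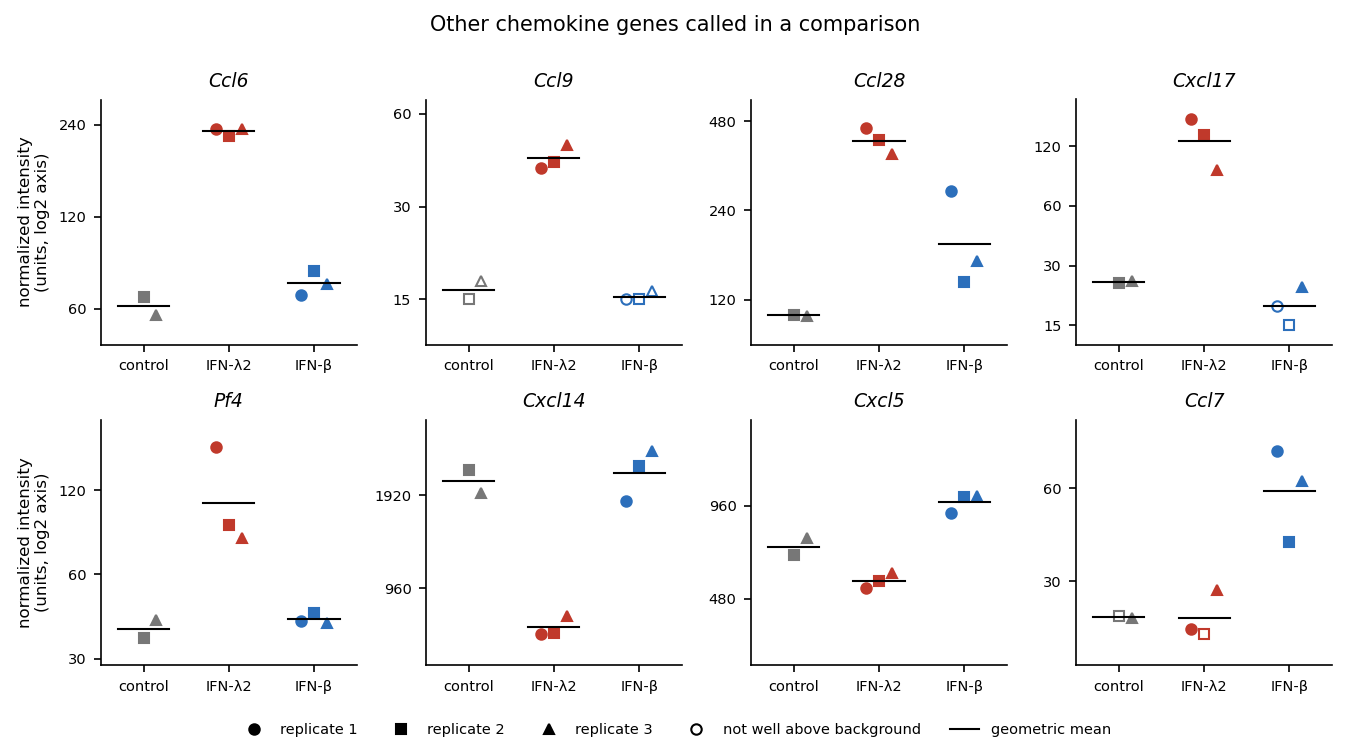
Level of the 8 other chemokine genes called in at least 1 comparison, on each of the 8 arrays, in normalized intensity units on a log2 axis. Symbols and lines are as for the 10 genes above. Ccl6, Ccl9, Ccl28, Cxcl17 and Pf4 are highest and Cxcl14 and Cxcl5 lowest in the IFN-λ2 group, and Ccl7 is highest in the IFN-β group.

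Few transcripts of chemokine receptors were detected. Of 22 receptor genes 6 were tested, and 13 were not well above background on any array, among them Cxcr3 and Cxcr6, the receptors for CXCL10 and CXCL16. Ackr3, a scavenging receptor, was the only one of the 22 well above background on all 8 arrays. It read 152 to 166 units in control, 79.7 to 108 units with IFN-λ2 and 156 to 180 units with IFN-β, and was lower with IFN-λ2, with a log2 difference of -0.75 from control (adjusted p = 0.0117) and of -0.83 from IFN-β (adjusted p = 0.00783). The call against control was lost without control replicate 2 (adjusted p = 0.0656), and with normexp background correction the differences were -0.31 and -0.32 and neither was called.

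Of 14 regulators and proteases that act on chemokines 13 were tested, and 5 rose with IFN-λ2 and 4 with IFN-β, beside 10% and 1.44% of all probes. Irf7, a regulator of the IFN response, rose by 3.67 and 3.85 on the log2 scale (adjusted p = 3.67e-06 and 5.18e-06). Stat2 rose by 2.16 and 1.73, Irf9 by 1.99 and 1.93 and Irf1 by 1.13 and 0.86, each with an adjusted p of at most 0.00154. Between the IFNs none of these 4 was called, with adjusted p of 0.0525 for Stat2 and 0.0508 for Irf1. Nfkb2, an NF-κB subunit, was 0.29 higher with IFN-λ2 than in control (adjusted p = 0.0276) and 0.27 higher relative to IFN-β (adjusted p = 0.0337), and neither was called with the slide as a block (adjusted p = 0.0513 and 0.0646). The call against control was also lost in the fit without any 1 array except IFN-β replicate 1 (adjusted p between 0.0506 and 0.0926), and that against IFN-β without any 1 IFN array (0.0757 to 0.0962). Both were lost with normexp background correction (0.14 and 0.13), and the first also with quantile normalization (0.0619) and with the groups compared alone (0.0566). Nfkb1, Rela, Relb and Nfkbia were not called in any comparison by the probe counted, while a second Relb probe was 0.31 higher with IFN-λ2 than in control (adjusted p = 0.0179). A second probe of Irf1 was not called (adjusted p = 0.0547 with IFN-λ2 and 0.189 with IFN-β against control).

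The 7 genes of the set that were well above background on all 8 arrays were set against 18699 other named probes with the same property. Over the 8 arrays the level of Cxcl10 was most like those of Trim30, Ube2l6 and Trim21, with Pearson's r between 0.997 and 0.998. Cxcl16 was most like Lrrc27, Reps2 and Atp1b1, with r between 0.988 and 0.996. Ccl2 was most like Serpina9 (0.986) and Cxcl1 most like Csf3 (0.978) and Gsdmd (0.976). The nearest probes of Ccl5, Cx3cl1 and Cxcl11 were Txnl4a (0.964), Rcc2 (0.969) and Ndor1 (0.977). These are the highest of many values over 8 arrays that share 3 slides, and they describe likeness of pattern alone.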

How the data were processed

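RNA of 8 cultures was hybridized to 1-colour Agilent mouse arrays. The intensities were made by the authors' scanner software (Feature Extraction 10.7.3.1, background-subtracted, per the file headers), and the deposited value table holds the authors' normalized intensities. The labels name Trizol and the study's methods an RNeasy kit for RNA extraction. Following those methods, features with flags, a pixel coefficient of variation above 0.5 or, among on-chip copies, values beyond 1.42 interquartile ranges were left out, copies were averaged geometrically, the 75th percentile of each array was set to 1500, values under 15 were set to 15, and log2 was taken. The deposited values equalled these times 0.909 to 0.928 per array (Pearson's r of 1 on the log2 scale).

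Probes above 15 units on at least 2 arrays (25972 of 39429) were fitted with limma 3.58.1 (R 4.3.3), with 1 mean per group over all 8 arrays, and adjusted over all of them after Benjamini-Hochberg. Dim genes, where a whole group was not well above background, are given as a bound, except Cxcl9, whose IFN-λ2 group held an array set to 15 units. No array was left out, and their number limits the precision. Tables were handled with Python 3.11.15, numpy 2.4.6, pandas 2.3.3, scipy 1.17.1 and matplotlib 3.10.9, and the fit was tested on simulated data.

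The 10 genes and the lists were chosen with earlier results of these data known. All 10 genes are described, and of the other lists those called in at least 1 comparison are named, at most 10 per list. A gene of the list of regulators is not reported here. Of the 12 probes 10 matched a RefSeq symbol by accession, and the 2 Cxcl11 probes keep the name of the array design, whose probe coordinates are on mm9. Promoters came from RefSeq (GRCm38.p6) and were not mixed with probe coordinates. Cxcl11, Cxcl16, Ccl2 and Ccl5 had no entry in that table. Marker lists covered epithelium, leukocytes, fibroblasts and endothelium, and none of the 2 endothelial and 3 fibroblast markers tested was called by the probe counted, beside 18.6%, 1.65% and 11.2% of all probes in the 3 comparisons, so that this count says nothing about these cell types. A second probe of Kdr, an endothelial marker, read 95.8 to 164 units in control, 377 to 403 units with IFN-λ2 and 114 to 164 units with IFN-β, and was called against control (adjusted p = 0.00478) and against IFN-β (0.00596).

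Replicate number, slide and scan were the same. Deviations from the group means of same-numbered IFN-λ2 and IFN-β arrays correlated with 0.181, 0.256 and 0.297, so that the numbers pair these arrays. Control arrays correlated with 0.001 and -0.013 with IFN-λ2 arrays and with 0.101 and -0.057 with IFN-β arrays. The alternatives tried were the slide as a block, quantile normalization, normexp background correction, a threshold of 50 units or none, no exclusion of features, other filters, a variance prior that follows the level, groups compared alone, the deposited values, a 2-fold requirement, the t-test of the study's methods (unadjusted p under 0.001 and a 2-fold change), and leaving out each array.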

Additional observations from a re-analysis of the deposited data

How the results depend on the processing

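Of the results for single genes, 960 values under the alternatives stayed on their side of the threshold without reversing, 94 lost the call without reversing (among them Ccl9, whose differences were 0 with a threshold of 50 units), 9 gained a call and 11 reversed. The reversals were of differences that were not called, except for Ccl8. IFN-λ2 minus control became -0.017 for Ccl2 with quantile normalization. IFN-β minus control of Cxcl11 became -0.023 with normexp and -0.13 with quantile normalization, and between -0.035 and 0.060 when 1 array was left out. That of Cxcl16 was -0.043 to 0.34 with 1 array left out. IFN-λ2 minus IFN-β of Ccl8 became 0.022 with normexp. With 1 array left out it was -1.26 to 0.10 for Ccl20 and -0.065 to 0.12 for Cx3cl1.

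Genes of the set higher with IFN-λ2 than in control numbered 2, and 1 with a 2-fold change required or by the methods' t-test, 4 with the variance prior that follows the level, and 2 to 3 with 1 array left out. Those higher with IFN-β than in control numbered 2, and 1 with a threshold of 50 units, with the groups compared alone, by the methods' t-test, without a filter on dim probes, with normexp, with the filter for probes well above background in a whole group, and with the replicate block. With 1 array left out they numbered 1 to 2, and 1 without IFN-β replicate 1 or 3, IFN-λ2 replicate 1 or 3 or either control array. Between the IFNs those higher after IFN-λ2 numbered 1, and 0 with a 2-fold change required or by the methods' t-test and 2 with normexp, quantile normalization or the variance prior. Those lower numbered 3, and 1 with a 2-fold change required or a threshold of 50 units, and 0 by the methods' t-test, without a filter and with normexp. With 1 array left out they numbered 0 to 3, with 0 without IFN-β replicate 3 or IFN-λ2 replicate 1 or 2 and 1 without IFN-β replicate 1 or IFN-λ2 replicate 3. None of the 10 genes fell against control under any alternative run. In the fit reported, Cxcl9, Ccl8 and Ccl20 had no room to fall, since both control arrays were at 15 units. Of the 16 other chemokines, 6 receptors and 13 regulators and proteases tested, 13 changed with IFN-λ2, 4 with IFN-β (the regulators Irf1, Irf7, Irf9 and Stat2) and 10 between the IFNs, beside 18.6%, 1.65% and 11.2% of all probes. These were 6, 2 and 4 by the methods' t-test and 10 to 14, 4 to 5 and 6 to 10 with 1 array left out, with 6 without IFN-β replicate 3. The cause of these changes was not tested.

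With the replicate number as a block, the adjusted p was 0.067 for Ccl8 with IFN-β against control and 0.0922 for Cxcl1 between the IFNs, and the calls of Cxcl5, Nfkb2 and Cdh1 given above were lost, whereas Cxcl3 was gained between the IFNs (adjusted p = 0.0244). By the probes counted, the block changed no other call among the genes of the lists. Over all probes it called 1875 probes higher and 1505 lower with IFN-λ2. For IFN-β it called 251 and 12, and between the IFNs 1056 and 1118. Normexp background correction moved the median of all probes to 0.11 for IFN-λ2 against control, and its calls were 1493 higher and 641 lower, beside 2604 and 2220 in the fit reported. For IFN-β against control they were 263 and 6 beside 374 and 54, and between the IFNs 990 and 391 beside 1436 and 1476. Cxcl9, Ccl8 and Ccl20 could not be tested with the filter for probes well above background in a whole group. Low signal over background limits these 3 genes and Ccl7, Ccl9, Cxcl3 and Cxcl17.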
